A study of Homo sapiens with 9 samples.

Results

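The 10 genes described here, IRF4, PRDM1, XBP1, TNFRSF17, MZB1, SDC1, CD38, CD27, ELL2 and IGJ, are textbook genes of plasma-cell differentiation, and were taken from the deposited count table by symbol. The table held 25370 gene symbols, all 10 genes among them. After genes with few counts were removed, 15089 were tested, including 9 of the 10 but not SDC1. RNA-seq was run on total RNA, after removal of ribosomal RNA, of OCI-Ly1, an established human cell line from a diffuse large B-cell lymphoma of the germinal-centre type. The cells were kept for 48 h with 150 nM JIB-04, with 500 nM JIB-04 or with the solvent DMSO, with 3 libraries in each group and 9 in all. JIB-04 inhibits Jumonji-domain histone demethylases, which remove methyl groups from histone lysines. The question asked of the 10 genes was whether the higher IRF4 and XBP1 counts came with the rest of the plasma-cell genes.

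A germinal-centre B cell that becomes a plasma cell raises the transcription factors IRF4 and PRDM1, which shut down the B-cell programme, and then XBP1, which enlarges the secretory pathway. XBP1 protein becomes active when the kinase and endoribonuclease IRE1 (gene ERN1) removes a short intron from its mRNA in the cytoplasm, a step that also runs in the unfolded protein response of other cells. The finished plasma cell carries TNFRSF17, SDC1, CD38 and CD27 on its surface, and uses MZB1, ELL2 and IGJ to make and assemble secreted antibody.

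At 500 nM against DMSO the 10 genes split in both directions. TNFRSF17, IRF4, XBP1 and ELL2 rose, by 1.39-fold to 3.10-fold, and MZB1, IGJ, CD38 and CD27 fell, to 0.528-fold to 0.813-fold of the DMSO level. PRDM1 did not pass the test, and SDC1 had 20 counts in all at 500 nM and none at 150 nM or in DMSO. These 8 calls among the 9 genes tested are 88.9%, against 52.0% of all tested genes called at this dose, so that a call alone says little of these genes. Calls upward were 44.4% of the 9 and 26.3% of all tested genes, and calls downward were 44.4% of the 9 and 25.6% of all. The rises of IRF4 and XBP1 were known when the 10 genes were chosen, so these shares are not an independent test. A gene was called at a Benjamini-Hochberg adjusted p under 0.05 over the 15089 genes, in edgeR's quasi-likelihood test fitted to all 9 libraries. At 150 nM against DMSO, TNFRSF17 alone was called among the 9 (11.1%, against 1.27% of all tested genes, with 0.954% of all tested genes called upward). At 500 nM against 150 nM the same 4 genes rose and the same 4 fell (88.9%, against 46.5% of all tested genes, 23.7% upward and 22.8% downward). The 3 comparisons share libraries, so their calls are not independent of each other. Separate cultures are not stated in the labels, and p-values measure only how far these libraries differ, which can be technical. In bulk RNA, fewer cells with a transcript and less transcript per cell cannot be told apart.

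**Figure D1:**
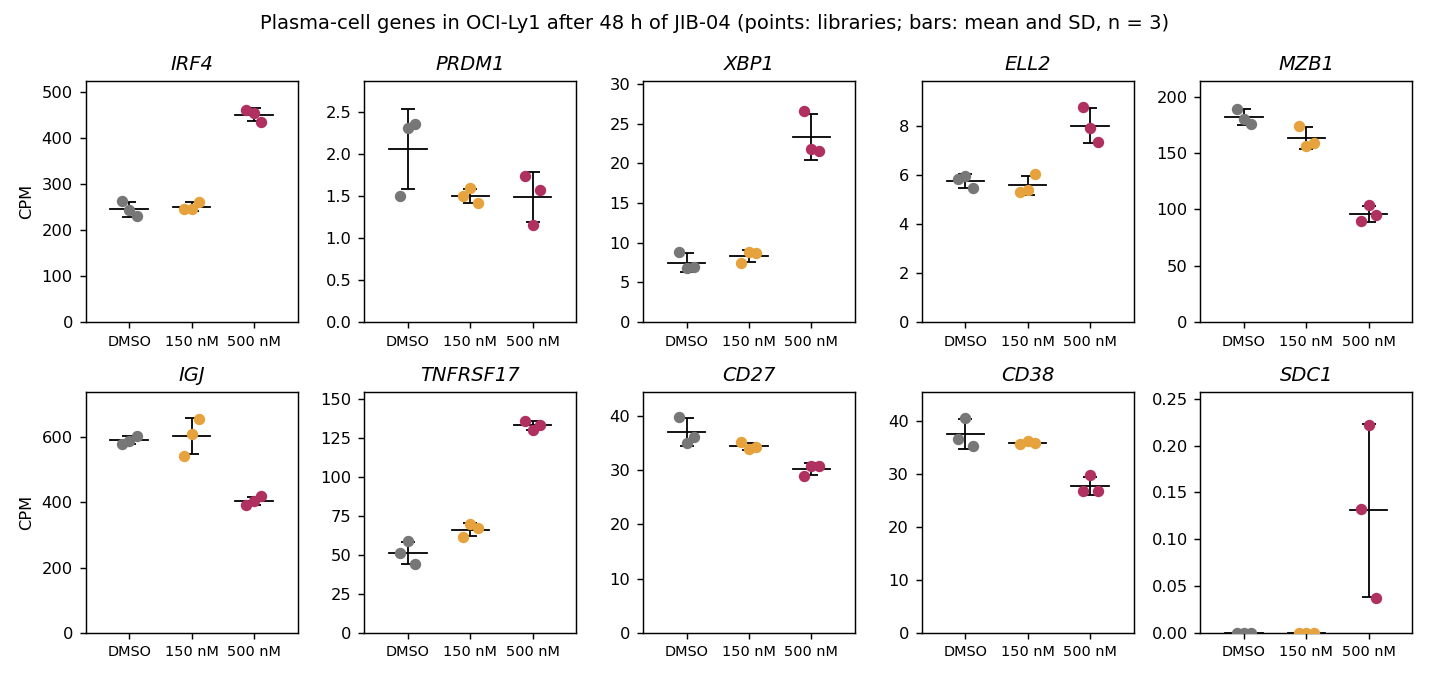
Normalised read counts (CPM, y axes from 0) of the 10 genes in each library, by group (x axes: DMSO, 150 nM and 500 nM JIB-04). Points are libraries and horizontal bars are group means with SD (n = 3); the 500 nM libraries of TNFRSF17, IRF4, XBP1 and ELL2 lie above all others, those of MZB1, IGJ, CD38 and CD27 lie below all others, and SDC1 has counts at 500 nM alone.

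Promoter sequences are shown for 4 genes, because 2 of them rose (XBP1 and IRF4) and 2 fell (CD38 and MZB1), and because known binding letters of the factors named above could be searched in them. The RefSeq promoter table of GRCh38.p14 had an entry for 8 of the 10 genes, all but TNFRSF17 and ELL2. The sequences printed are of 300 bases each, running 5′ to 3′ on the strand of the gene, with 250 bases before the transcription start and 50 bases from it on. Capitals mark the letters that matched any of 10 motifs, on either strand.

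XBP1, chr22:28800520-28800819, minus strand: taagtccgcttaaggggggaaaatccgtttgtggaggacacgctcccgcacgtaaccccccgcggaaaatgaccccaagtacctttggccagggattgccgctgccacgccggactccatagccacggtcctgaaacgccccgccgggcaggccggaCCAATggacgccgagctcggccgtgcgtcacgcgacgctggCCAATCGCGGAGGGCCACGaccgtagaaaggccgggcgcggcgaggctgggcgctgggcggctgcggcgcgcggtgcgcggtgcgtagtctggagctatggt
IRF4, chr6:391502-391801, plus strand: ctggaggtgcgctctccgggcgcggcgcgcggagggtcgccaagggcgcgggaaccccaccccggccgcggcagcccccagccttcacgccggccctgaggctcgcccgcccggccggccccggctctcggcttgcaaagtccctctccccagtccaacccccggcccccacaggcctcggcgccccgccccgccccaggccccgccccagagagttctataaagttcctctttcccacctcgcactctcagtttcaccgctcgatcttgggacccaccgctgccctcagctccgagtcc
CD38, chr4:15778078-15778377, plus strand: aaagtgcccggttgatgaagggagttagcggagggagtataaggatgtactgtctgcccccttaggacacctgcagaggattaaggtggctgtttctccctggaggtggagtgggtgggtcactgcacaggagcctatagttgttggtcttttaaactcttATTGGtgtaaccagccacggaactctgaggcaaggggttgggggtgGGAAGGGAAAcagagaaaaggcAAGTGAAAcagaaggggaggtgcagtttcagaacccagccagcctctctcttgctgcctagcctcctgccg
MZB1, chr5:139389864-139390163, minus strand: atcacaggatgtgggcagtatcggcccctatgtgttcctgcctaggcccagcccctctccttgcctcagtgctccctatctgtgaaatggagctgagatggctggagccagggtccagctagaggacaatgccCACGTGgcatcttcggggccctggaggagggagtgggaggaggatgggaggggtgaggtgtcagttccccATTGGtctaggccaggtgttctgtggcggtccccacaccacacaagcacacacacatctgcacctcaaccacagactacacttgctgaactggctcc

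The XBP1 promoter held the endoplasmic reticulum stress element ERSE (CCAAT and CCACG with 9 bases between them) at bases 199 to 217, counted from 1 at the 5′ end. This element, which ATF6 and XBP1 are known to bind, was found in 27 of 35116 RefSeq promoters of the same length (0.0769%). Its CCAAT part also counts as a CCAAT box, and a further CCAAT box stood at bases 158 to 162, while another XBP1 entry matched no motif. CCAAT boxes were in 34.6% of all promoters. The IRF4 promoter matched none of the 10 motifs. The CD38 promoter held the composite element EICE (GGAA and GAAA with 2 bases between them), a site of IRF4 with PU.1 or SPIB, at bases 208 to 217 (2.82% of all promoters). It also held the letters of a PRDM1 site (AAGTGAAA) at bases 230 to 237 (1.62%) and a CCAAT box on the opposite strand at bases 162 to 166. The MZB1 promoter held an E-box (CACGTG) at bases 134 to 139 (7.26%) and a CCAAT box on the opposite strand at bases 204 to 208. An AP-1 site (TGANTCA, 7.71%) was found in a promoter each of PRDM1, CD27 and IGJ, and the promoter of SDC1 matched none. The other motifs searched were the UPRE core (TGACGTG, 1.97%), the ATF4 element CARE (TGATGNAA, 3.62%), the interferon-stimulated element ISRE (GAAA and GAAA with 2 bases between them, 3.57%) and an NF-kB site (GGGA and TTCC with 2 bases between them, 1.61%), and none of these was in the promoters of the 8 genes. A match describes the letters and shows no binding.

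Among the transcription factors, IRF4, which in B-lineage cells sets antibody class switching at moderate levels and plasma-cell fate at high levels, was the most abundant per length of transcript. It had 263, 243 and 231 CPM (read counts scaled to library size by TMM) in the DMSO libraries, 246, 245 and 262 CPM at 150 nM, and 462, 456 and 435 CPM at 500 nM. The 500 nM libraries stood clear above the other 6, and the 150 nM libraries lay among those of DMSO. IRF4 rose 1.84-fold at 500 nM against DMSO, a log2 change of 0.88 ± 0.05 (SE) with a 95% interval of 0.77 to 0.99 and an adjusted p of 5.87e-14 by edgeR's quasi-likelihood test. At 150 nM its log2 change against DMSO was 0.03 ± 0.05, with an interval of -0.07 to 0.14 and an adjusted p of 0.887 by the same test. Against 150 nM, the 500 nM level was higher by 0.84 ± 0.05 on the log2 scale (adjusted p 2.23e-13, edgeR).

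XBP1, the transcription factor of the secretory pathway, showed the largest rise of the 9 genes tested. It had 8.83, 6.78 and 6.88 CPM in the DMSO libraries, 7.44, 8.83 and 8.75 CPM at 150 nM, and 26.6, 21.8 and 21.5 CPM at 500 nM. The 500 nM libraries were all above the other 6, while those of 150 nM and DMSO overlapped. The change was 3.10-fold at 500 nM against DMSO, or 1.63 ± 0.12 on the log2 scale with an interval of 1.38 to 1.88 (edgeR adjusted p 5.79e-12). At 150 nM it was 0.14 ± 0.13 on the log2 scale, with an interval of -0.12 to 0.40 (edgeR adjusted p 0.77). Counts per gene do not separate spliced from unspliced XBP1 mRNA, so the active form was not measured.

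PRDM1, the repressor known as Blimp-1 that closes the B-cell programme, was near the lower limit of the data. Its counts were 65, 63 and 101 reads in the DMSO libraries, 64, 65 and 46 at 150 nM and 105, 52 and 84 at 500 nM. After scaling these were 1.51, 2.31 and 2.36 CPM in DMSO, 1.497, 1.594 and 1.423 CPM at 150 nM, and 1.74, 1.15 and 1.57 CPM at 500 nM. The 500 nM libraries overlapped those of DMSO, and the DMSO libraries spread over more than the 500 nM ones. The log2 change at 500 nM against DMSO was -0.45 ± 0.26, with an interval of -0.99 to 0.08 (edgeR adjusted p 0.146). The interval leaves room for no change and for a decrease, and its upper end lies below the changes of IRF4 and XBP1.

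The receptor TNFRSF17 (BCMA), which binds the survival factors BAFF and APRIL on plasma cells, was the gene of the 9 that was called at both doses. It had 51.2, 58.7 and 44.0 CPM in the DMSO libraries, 61.5, 69.6 and 67.1 CPM at 150 nM, and 135.8, 129.9 and 133.6 CPM at 500 nM. No library of one group overlapped another group, and the groups stood in the order of dose. At 500 nM against DMSO it rose 2.60-fold, by 1.38 ± 0.08 on the log2 scale (interval 1.22 to 1.54, edgeR adjusted p 1.16e-14). At 150 nM it rose 1.29-fold, by 0.37 ± 0.08 (interval 0.21 to 0.53, edgeR adjusted p 0.00769). The call at 150 nM was lost without 150 nM replicate 2 (edgeR adjusted p 0.0906) and in a fit of the 6 libraries of that comparison alone (adjusted p 0.0612). Of its ligands, TNFSF13B (BAFF) had 0.0888 to 0.224 CPM at 500 nM and 0.186 to 0.367 CPM in DMSO, and TNFSF13 (APRIL) had 0.374 to 0.710 CPM at 500 nM and 0.585 to 0.806 CPM in DMSO. Neither ligand was called, nor was the related BAFF receptor TNFRSF13C, with 3.22 to 4.22 CPM at 500 nM and 2.42 to 3.87 CPM in DMSO. The related receptor TNFRSF13B (TACI) rose by 0.54 ± 0.10 on the log2 scale at 500 nM against DMSO (edgeR adjusted p 6.51e-05), with 23.2, 19.97 and 20.8 CPM at 500 nM and 16.5, 13.97 and 13.7 CPM in DMSO. These 4 genes were named after their values were seen.

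The surface genes CD38 and CD27 fell at 500 nM against DMSO. CD38, an enzyme that breaks down NAD on the surface of germinal-centre B cells and plasma cells, had 36.7, 40.7 and 35.3 CPM in the DMSO libraries, 35.7, 36.3 and 35.9 CPM at 150 nM, and 26.7, 29.8 and 26.8 CPM at 500 nM. The 500 nM libraries were all below the other 6. CD38 fell by 0.43 ± 0.08 on the log2 scale at 500 nM against DMSO (interval -0.59 to -0.27, edgeR adjusted p 3.6e-05). CD27, a receptor of memory B cells and plasma cells, had 39.9, 35.1 and 36.1 CPM in DMSO, 35.1, 33.8 and 34.3 CPM at 150 nM, and 28.9, 30.8 and 30.8 CPM at 500 nM. Its 500 nM libraries were the lowest of the 9, by a smaller margin. CD27 fell by 0.30 ± 0.08 on the log2 scale at 500 nM against DMSO (interval -0.46 to -0.14, edgeR adjusted p 0.00164), and the call was lost when libraries were scaled by total counts (-0.16, adjusted p 0.0829). Reads of the antisense gene CD27-AS1, which overlaps CD27 on the opposite strand and shares 250 bases with its 1338-base transcript, cannot be told apart from CD27 where counting does not use the strand. CD27-AS1 itself had 4.06, 4.46 and 4.54 CPM at 500 nM and 5.68, 6.64 and 5.57 CPM in DMSO. CD70, the ligand of CD27, rose by 0.57 ± 0.07 on the log2 scale at 500 nM against DMSO (edgeR adjusted p 4.73e-08), with 113, 124 and 118 CPM at 500 nM and 85.8, 82.2 and 72.0 CPM in DMSO.

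SDC1 (CD138), the heparan sulphate proteoglycan by which plasma cells are usually recognised, had no reads in the 3 DMSO libraries and none in the 3 libraries of 150 nM, and 8, 10 and 2 reads in the 500 nM libraries. Over the group this is 0.126 CPM at 500 nM, at least 4.75-fold higher than a floor of 3 counts over the DMSO libraries (0.0265 CPM) and at least 4.86-fold higher than the same floor at 150 nM (0.0259 CPM). The floor covers counting error only. SDC1 was removed by the filter and so was not tested in the fit reported here. Without the filter its edgeR adjusted p was 0.0374 at 500 nM against DMSO, and DESeq2 gave 0.0658. Its relative SDC3 rose by 3.27 ± 0.35 on the log2 scale at 500 nM against DMSO (edgeR adjusted p 7.44e-09), with 2.69, 2.93 and 2.43 CPM at 500 nM and 0.348, 0.293 and 0.187 CPM in DMSO.

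Of the genes of antibody production, MZB1 and IGJ fell and ELL2 rose. MZB1, an endoplasmic reticulum protein that helps assemble immunoglobulin chains together with the chaperone HSP90B1 (GRP94), had 189, 180.4 and 176 CPM in the DMSO libraries, 174, 157 and 159 CPM at 150 nM, and 89.4, 103.7 and 95.1 CPM at 500 nM. The 500 nM libraries were all below the others, and those of 150 nM were all below those of DMSO. MZB1 fell to 0.528-fold at 500 nM against DMSO, by 0.92 ± 0.06 on the log2 scale (interval -1.05 to -0.80, edgeR adjusted p 3.64e-13). At 150 nM its log2 change was -0.16 ± 0.06 with an interval of -0.28 to -0.03, and the test gave an unadjusted p of 0.014 and an adjusted p of 0.298 (edgeR). Without 150 nM replicate 1 the gene was called at 150 nM (-0.21, edgeR adjusted p 0.0344). HSP90B1 fell by 0.77 ± 0.05 on the log2 scale at 500 nM against DMSO (edgeR adjusted p 1.66e-12), with 158, 148 and 157 CPM at 500 nM and 248, 265 and 276 CPM in DMSO.

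IGJ, listed today as JCHAIN, encodes the joining chain that links units of IgM and IgA. It had 579, 587 and 603 CPM in DMSO, 543, 610.4 and 654 CPM at 150 nM, and 391, 403 and 418 CPM at 500 nM. The 500 nM libraries were all lower than the other 6, and the 150 nM libraries spread around those of DMSO. IGJ fell by 0.55 ± 0.05 on the log2 scale at 500 nM against DMSO (interval -0.66 to -0.43, edgeR adjusted p 2.21e-09). ELL2, an elongation factor that shifts immunoglobulin mRNA to the secreted form, had 5.84, 5.98 and 5.46 CPM in DMSO, 5.31, 5.40 and 6.03 CPM at 150 nM, and 8.76, 7.90 and 7.36 CPM at 500 nM. It rose 1.39-fold at 500 nM against DMSO, by 0.48 ± 0.13 on the log2 scale (interval 0.20 to 0.76, edgeR adjusted p 0.00387). Its counts are uncertain, since the pseudogene ELL2P1 matches 1886 of its 6046 transcript bases at 96.4% identity and reads from that stretch can be split or lost. Its relative ELL3 fell by 1.02 ± 0.05 on the log2 scale (edgeR adjusted p 1.62e-15), with 118, 124 and 121 CPM at 500 nM and 239, 246 and 251 CPM in DMSO.

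**Figure D2:**
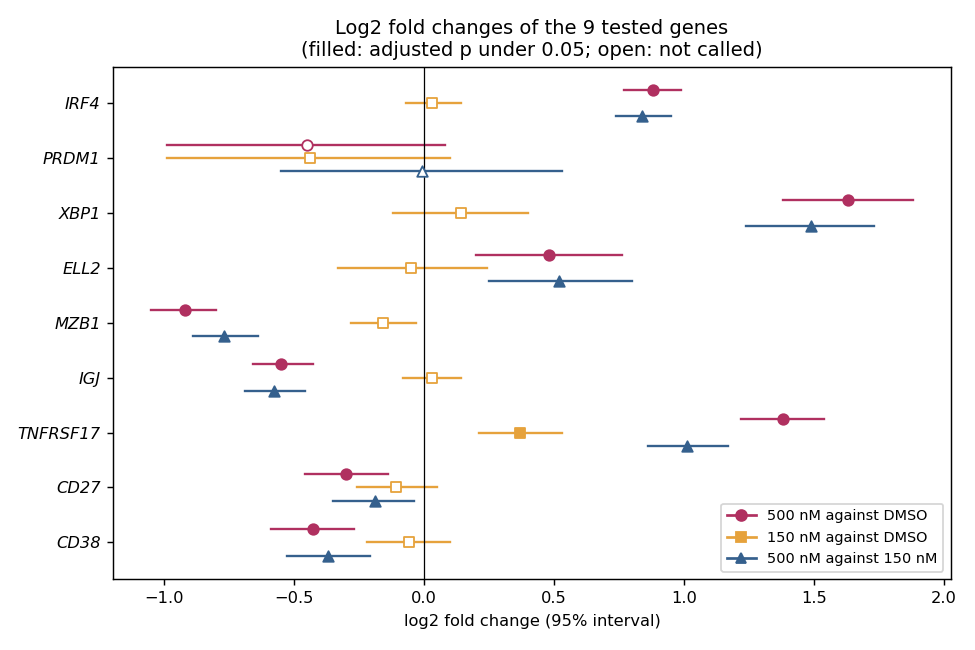
Log2 changes (x axis) of the 9 genes tested, in the comparisons 500 nM against DMSO, 150 nM against DMSO and 500 nM against 150 nM. Points are edgeR estimates with 95% intervals, filled where called; at 500 nM against DMSO they run from -0.92 for MZB1 to 1.63 for XBP1, and at 150 nM against DMSO the interval of TNFRSF17 lies wholly above 0.

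All 8 genes called at 500 nM against DMSO had libraries that did not overlap between the groups, as did 59.2% of all tested genes. The same held for these 8 at 500 nM against 150 nM, where 55.0% of all tested genes were separate. At 150 nM against DMSO, TNFRSF17 and MZB1 were separate, in opposite directions, against 13.7% of all tested genes. The median log2 change of the 9 genes at 500 nM against DMSO was -0.30, against 0.01 over all tested genes. For CD38 the log2 change at 500 nM against 150 nM was -0.37 ± 0.08 (edgeR adjusted p 0.000279). For CD27 it was -0.19 ± 0.08 (edgeR adjusted p 0.0395), and leaving out any 1 library of either group ended that call, with adjusted p-values of 0.0577 to 0.146. For ELL2 it was 0.52 ± 0.13 (edgeR adjusted p 0.00212).

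Levels were compared between genes as CPM per kilobase of the longest annotated transcript. In DMSO, IGJ was highest with 410 CPM per kb, followed by MZB1 with 96.4, TNFRSF17 with 51.6, IRF4 with 46.0, CD27 with 27.7, CD38 with 6.63, XBP1 with 3.45, ELL2 with 0.952 and PRDM1 with 0.399 CPM per kb. Only the libraries of TNFRSF17 and IRF4 overlapped between neighbours in that order. At 150 nM the order was the same, from 419 CPM per kb for IGJ to 0.291 for PRDM1, and all neighbours were separate. At 500 nM IGJ was still highest with 281 CPM per kb, and TNFRSF17 (134) and IRF4 (84.6) stood above MZB1 (50.9). XBP1, with 10.7 CPM per kb, stood above CD38, with 4.90, at 500 nM, and all neighbours in the order were separate. PRDM1 was at 0.288 and SDC1 at 0.0397 CPM per kb at 500 nM.

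**Figure D3:**
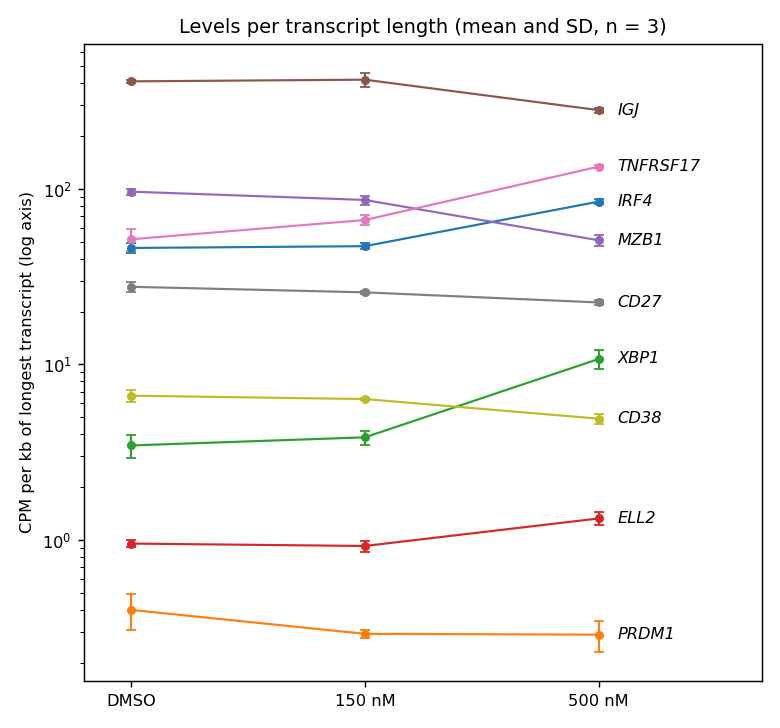
Mean levels of the 9 tested genes in CPM per kilobase of transcript (log y axis) by group (x axis, DMSO, 150 nM and 500 nM). Lines join the group means of a gene and bars are SD (n = 3); the lines of TNFRSF17 and IRF4 cross that of MZB1 between 150 and 500 nM, and that of XBP1 crosses that of CD38.

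The genes most like IRF4 over the 9 libraries, by the root-mean-square difference of log2 CPM centred on DMSO among 9674 genes of at least 5 CPM, were PEA15 and ZNF496 (0.054 each) and SRCAP (0.059). Unnamed loci, genes with clone-type or open-reading-frame names, long intergenic RNAs and small RNAs were left out of the 9674. PEA15 averaged 82.9 CPM at 500 nM and 44.5 CPM in DMSO. Those most like XBP1 were FBXO32 (0.140), NAV3 (0.151) and RIMS2 (0.154), and FBXO32 averaged 20.3 CPM at 500 nM and 6.83 CPM in DMSO. Within the 9, the nearest gene to XBP1 was TNFRSF17 (0.248), and the nearest to IRF4 was ELL2 (0.248). MZB1 was the farthest from both, at 1.05 from IRF4 and 1.499 from XBP1. These values describe likeness in libraries that share a treatment and are not tests.

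Of 36 other genes known to be high in plasma cells, 28 were tested, and 14 rose, 7 fell and 7 were not called at 500 nM against DMSO. That is 75.0% called, against 52.0% of all tested genes, of which 26.3% were called higher and 25.6% lower. The median log2 change of the 28 was 0.38, against 0.01 over all tested genes. The rises include CAV1 and TXNDC5, which were near the lower limit of the data. They averaged 0.824 and 1.46 CPM at 500 nM, with 5 and 65 counts in all in DMSO. CAV1, with the highest change of the list (4.16), passed the filter through the 500 nM libraries alone. Among the genes called lower, FKBP11 had the lowest mean at 500 nM, 23.6 CPM. The 3 rises with the smallest p were those of ERN1, which encodes IRE1, SLC3A2, the heavy chain of amino acid transporters, and the survival kinase gene PIM2. ERN1 had 31.97, 28.8 and 27.3 CPM at 500 nM and 3.34, 2.97 and 3.04 CPM in DMSO, a log2 change of 3.23 ± 0.13 (edgeR adjusted p 2.97e-18). SLC3A2 rose by 1.29 ± 0.05 and PIM2 by 1.07 ± 0.06 on the log2 scale. The falls with the smallest p were those of POU2AF1, an octamer coactivator that B cells need for plasma-cell formation (-0.30 ± 0.05), TRIB1 (-0.38 ± 0.07) and TRAM2 (-0.27 ± 0.05). With libraries scaled by total counts, which moved the median of all tested genes to 0.15, 15 of the 28 rose and 3 fell. Upward calls were then 83.3% of the calls, against 69.5% over all tested genes. At 150 nM against DMSO the calls were rises of ERN1 (0.58 ± 0.14), SLC3A2 (0.26 ± 0.05) and CXCR4 (0.19 ± 0.05), a chemokine receptor that was named after its values were seen. They were 10.7% of the 28, against 0.954% of all tested genes called upward and 1.27% called in either direction. The 8 genes that did not pass the filter included CREB3L2, CCR10 and BHLHA15.

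The B-cell genes that plasma cells are known to lose went both ways. Of 34 such genes, 32 were tested, and 11 rose, 15 fell and 6 were not called at 500 nM against DMSO, with a median log2 change of -0.04 against 0.01 over all tested genes. Genes called lower were 46.9% of the 32, against 25.6% of all tested genes, and genes called higher were 34.4%, against 26.3% of all. The rises include KLF2, LMO2 and HLA-DRA, which were near the lower limit of the data. They averaged 0.491, 1.07 and 1.03 CPM at 500 nM, with 0, 2 and 20 counts in all in DMSO. Among the genes called lower, HLA-DMA had the lowest mean at 500 nM, 3.97 CPM. Scaled by total counts, 15 rose and 13 fell, so that 53.6% of the calls were upward, against 69.5% over all tested genes under that scaling. BACH2, a repressor of PRDM1 in B cells, had 294, 319 and 322 CPM at 500 nM and 206, 202 and 206 CPM in DMSO, a rise of 0.61 ± 0.05 on the log2 scale (edgeR adjusted p 5.36e-11). CD83, a surface protein of activated B cells, rose by 0.98 ± 0.08 on the log2 scale (edgeR adjusted p 2.86e-11). STAP1 (-0.84 ± 0.07), TCL1A (-0.61 ± 0.05) and MME, the germinal-centre marker CD10 (-0.57 ± 0.05), fell. The germinal-centre repressor BCL6, named after its values were seen, had 235, 233 and 237 CPM at 500 nM and 235, 223 and 230 CPM in DMSO, a log2 change of 0.04 ± 0.05 (edgeR adjusted p 0.557). It was called higher when scaled by total counts (0.18, adjusted p 0.0035). PAX5, the B-cell identity factor that PRDM1 represses, rose by 0.17 ± 0.05 (edgeR adjusted p 0.00639), a call that was lost without 500 nM replicate 2 (0.13, adjusted p 0.0716). At 150 nM against DMSO 2 of the 32 rose and 0 fell. That is 6.25%, against 0.954% of all tested genes called upward and 1.27% called in either direction. BACH2 was 1 of the 2, with a rise of 0.20 ± 0.05 on the log2 scale (edgeR adjusted p 0.0337). The other, which had a smaller adjusted p, is not reported here.

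The secretory genes known as targets of spliced XBP1 went both ways. Of 44 genes, all tested, 12 rose, 10 fell and 22 were not called at 500 nM against DMSO, with a median log2 change of 0.04. The shares called, 27.3% higher and 22.7% lower, were near those of all tested genes, 26.3% and 25.6%. Scaled by total counts, 21 rose and 8 fell. Of these calls 72.4% were upward, against 69.5% of the calls over all tested genes under that scaling. The autophagy gene WIPI1 (1.01 ± 0.08), the co-chaperone DNAJB9 (1.0 ± 0.10) and EDEM1, which directs misfolded glycoproteins to degradation (0.58 ± 0.05), were the rises with the smallest p. The disulphide isomerases PDIA3 (-0.64 ± 0.05) and PDIA4 (-0.54 ± 0.05) and the chaperone cofactor SDF2L1 (-0.98 ± 0.10) were the falls with the smallest p. Of 11 genes of endoplasmic reticulum quality control known as ATF6 targets, 4 rose (36.4%, against 26.3% of all tested genes) and 6 fell (54.5%, against 25.6%), with a median of -0.36. SEL1L (1.38 ± 0.05) and HERPUD1 (1.14 ± 0.05), both of the degradation machinery of the endoplasmic reticulum, rose. So did ATF6 itself (0.49 ± 0.07), which is counted among the 11. The chaperone CALR (-1.02 ± 0.05) and MANF (-1.09 ± 0.07) fell with HSP90B1.

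ATF4 and CHOP are the transcription factors of another branch of the unfolded protein response. The list of their known targets held 15 genes, among them ATF4 itself and DDIT3, the gene of CHOP. All 15 rose at 500 nM against DMSO, against 26.3% of all tested genes, with a median log2 change of 2.51. The list was chosen with earlier results of these data known, so its shares are not an independent test. CHAC1 (4.52 ± 0.10), SESN2 (3.64 ± 0.07) and PPP1R15A (3.16 ± 0.08) are named by the smallest p. At 150 nM against DMSO 12 of the 15 rose, against 0.954% of all tested genes, with a median of 0.58. At that dose IRF4 and XBP1 were not called. At 500 nM these genes were higher together with XBP1 and ERN1, and their part in the XBP1 rise was not tested.

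Of the genes known to be high in the activated B-cell type of this lymphoma, in which IRF4 is also high, 16 of 18 were tested. At 500 nM against DMSO 6 rose (37.5%, against 26.3% of all tested genes), 2 fell (12.5%, against 25.6%) and 8 were not called, with a median of 0.04. PIM1 (0.45 ± 0.05), FOXP1 (0.36 ± 0.05) and FUT8 (0.32 ± 0.06) rose by the smallest p. The 2 that fell, SH3BP5 and CCDC50, had under 4 CPM in every library. Of 21 ligands, relatives and binding partners of the 10 genes, 19 were tested, and 6 rose and 3 fell at 500 nM against DMSO, with a median of 0.12. That is 47.4% called, against 52.0% of all tested genes. When scaled by total counts 8 rose and 2 fell, or 80.0% of calls upward, against 69.5% over all tested genes. The relative of IRF4 called by the smallest p was IRF1, with a rise of 1.18 ± 0.09, and the PRDM1 partner HDAC1 fell by 0.34 ± 0.05. IRF5 fell by 0.33 ± 0.13 (edgeR adjusted p 0.0347), a call that was lost without any 1 of the 500 nM libraries, without DMSO replicate 1 or 2, and when scaled by total counts (adjusted p 0.0569 to 0.232).

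**Figure D4:**
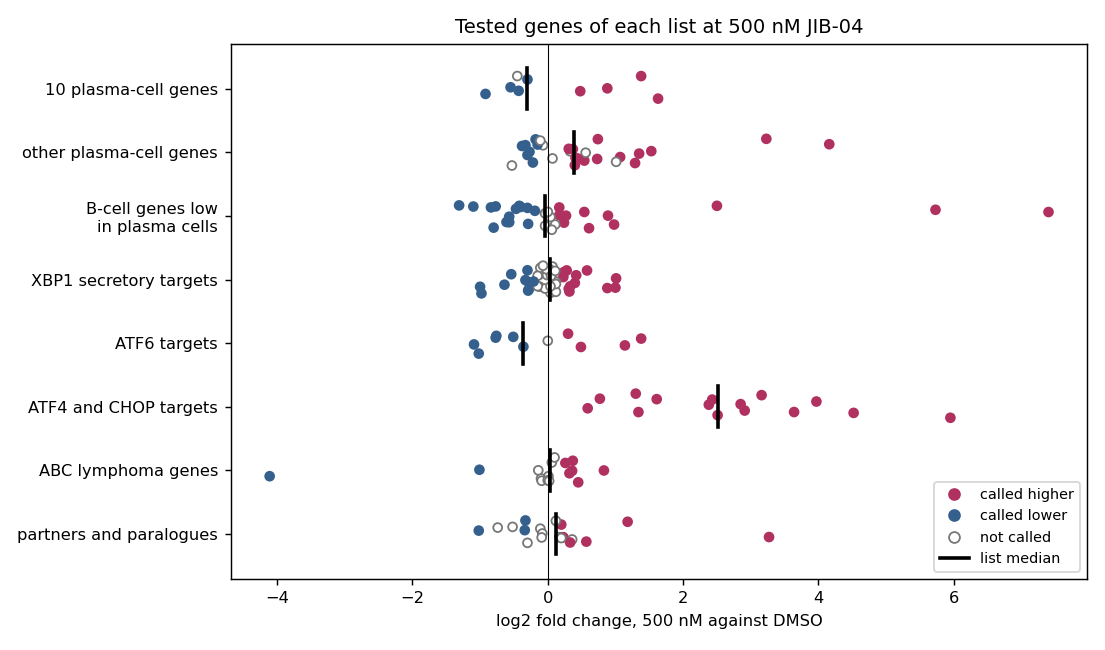
Log2 changes at 500 nM against DMSO of the tested genes of 8 gene lists, 1 point per gene, with the median of each list as a bar. The 15 genes of the ATF4 and CHOP list, which includes ATF4 and DDIT3 themselves, all lie above 0. The 9 plasma-cell differentiation genes, the 44 XBP1 targets and the 32 B-cell genes lie on both sides of 0. The lists were chosen with earlier results of these data known.

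Of 18 immunoglobulin constant and surrogate chain genes searched for, 4 had a row in the table and 2 passed the filter, so heavy-chain and kappa-chain levels are not analysed here. VPREB3 fell by 0.77 ± 0.12 on the log2 scale at 500 nM against DMSO. IGLL5, named after its values were seen, had 220, 230 and 212 CPM at 500 nM and 228, 186 and 196 CPM in DMSO, a log2 change of 0.12 ± 0.06 (edgeR adjusted p 0.115), and was called higher without DMSO replicate 1 (0.20, adjusted p 0.0052) and when scaled by total counts (0.25, adjusted p 0.00116). At 500 nM against 150 nM IGLL5 was called higher, with a log2 change of 0.15. That call was lost when libraries were scaled by DESeq2 size factors and with GC trends removed.

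Depth ran from 28476845 counts (DMSO replicate 2) to 57198613 counts (500 nM replicate 1). Over all genes, 3975 rose and 3868 fell at 500 nM against DMSO, and 5716 rose and 2514 fell when scaled by total counts. At 500 nM against 150 nM the numbers were 3577 and 3444, and 5257 and 2137 when scaled by total counts. B-cell markers were abundant, which places the line in the B lineage as labelled. MS4A1 had 372, 382 and 392 CPM at 500 nM and 495, 541 and 552 CPM in DMSO, and CD79B had 295, 304 and 301 CPM at 500 nM and 435, 411 and 365 CPM in DMSO. MS4A1 (-0.47 ± 0.06), CD79B (-0.43 ± 0.06) and CD22 (-0.40 ± 0.06) fell on the log2 scale at 500 nM against DMSO, and PAX5 rose as given above. The markers of other cells were low. The 8 T and NK cell markers summed to 8.18 to 8.93 CPM at 500 nM and 18.9 to 21.8 CPM in DMSO, with falls of CD3G, CD3D and CD2. The highest log2 change of the 6 tested was 1.22, which was not called. At 500 nM against 150 nM 1 of the 6 was called higher, as was 1 at 500 nM against DMSO when scaled by total counts. The 7 monocyte markers summed to 2.52 to 3.55 CPM at 500 nM and 3.98 to 4.27 CPM in DMSO, with MPO at 0 in all 9 libraries. The 7 epithelial markers summed to 3.10 to 4.55 CPM at 500 nM and 5.24 to 5.98 CPM in DMSO, with a fall of EPCAM and with CDH1, KRT19, KRT5 and KRT14 at 0. The 7 fibroblast and endothelial markers summed to 1.73 to 2.60 CPM at 500 nM and 3.70 to 4.75 CPM in DMSO, with a fall of PECAM1. MS4A1, CD79B and CD22 were lower at 500 nM, as were IGJ, MZB1, CD38 and CD27, and their part in those falls was not tested.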

How the data were processed

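RNA was measured in 9 libraries of OCI-Ly1 cells, grouped by their titles into 500 nM JIB-04, 150 nM JIB-04 and DMSO. The authors deposited raw read counts per gene symbol in 1 table, whose 9 columns all matched a sample. Named in the submitters' processing notes, without roles, are featureCounts 1.4.6, Subread, Bowtie2 2.2.6, TopHat2 2.0.14 and the builds mm10 and hg19. Neither annotation nor strand use is given in the sources used here. Reads carry no molecular identifiers.

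Low counts were removed by edgeR's filterByExpr (at least 10 counts, 15 in total), and the rest were scaled by TMM and fitted with edgeR 4.0.16 (quasi-likelihood, robust) in R 4.3.3, with 3 groups and no other term. Standard errors come from the log2 change and the F statistic. The fit was tested on simulated counts with known changes. GENCODE v29 transcripts gave lengths, GC content and similar sequences, and RefSeq gave promoters. No pair of libraries within a group matched within counting noise (chi-square per degree of freedom 6.59 to 16.05), so none was merged. Alternatives were DESeq2 1.42.0, limma-voom (limma 3.58.1), other scalings and filters, fits of 6 libraries, the replicate number as a block and leaving out each library. The 10 genes and all lists were chosen with earlier results of these data known. From each list, up to 3 called genes in each direction with the smallest p at 500 nM against DMSO are named. For IRF4 and XBP1 the 3 most similar of the 9674 genes ranked are named. Of the list symbols, 14 had no row. Some genes that the rule names are not reported here.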

Additional observations from a re-analysis of the deposited data

How the results depend on the processing

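At 500 nM against DMSO and against 150 nM, the number of the 10 genes called stayed at 7 to 9 under every alternative run, and no called gene changed direction. It was 9 without the filter, which lets SDC1 be tested, and 7 with total-count scaling. At 150 nM against DMSO the number of the 10 genes called was 1, was 0 with only the 6 libraries compared, and ran from 0 to 2 when libraries were left out in turn. The number of all genes called at 150 nM against DMSO was 192, and was 320 without the filter, 308 with the replicate number as a block, 354 with GC trends removed, 101 with only the 6 libraries compared, and 98 to 545 when libraries were left out in turn (98 without 150 nM replicate 2, 107 without DMSO replicate 2 and 545 without 150 nM replicate 1). The GC alternative was chosen after the data were seen. Changes near 0 took the other sign. IRF4 at 150 nM against DMSO was -0.01 without DMSO replicate 3, and -0.01 to 0.09 over the libraries left out in turn. IGJ at 150 nM against DMSO was -0.03 with GC trends removed and -0.03 without 150 nM replicate 3, and -0.03 to 0.10 over the libraries left out. PRDM1 at 500 nM against 150 nM was 0.11 with total-count scaling, 0.0022 with a filter of 1 CPM in 3 libraries, 0.02 with GC trends removed, 0.14 without 500 nM replicate 2 and 0.03 without 150 nM replicate 2, and -0.14 to 0.14 over the libraries left out. None of these was called, and the cause of each was not tested. Deviations of same-numbered libraries had correlations of -0.052 to 0.104. Between 150 nM and DMSO these were 0.104, 0.013 and 0.07, against -0.083 to 0.008 for libraries of different number. The labels do not state pairs, and the values do not decide whether the numbers mark pairs in that comparison. The numbers were not taken as pairs in the main fit. The block left 8 of the 10 genes called at 500 nM against DMSO, 1 at 150 nM against DMSO and 8 at 500 nM against 150 nM. At a few CPM or less, as for PRDM1 and SDC1, counting error limits what can be seen.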
